A study of Mus musculus with 6 samples.

Results

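Transcripts of leukemia inhibitory factor (LIF), of the receptor chains that bind it and its relatives, and of the kinases, the transcription factor and the inhibitor that act after the receptor were examined at PPD 4.5 in the uteri of *Foxo1f/f* and of *Foxo1d/d* mice. The genes were chosen by symbol for their known roles, with earlier results of these data known. They are the ligands *Lif*, *Osm* and *Il6*, the receptor chains *Lifr*, *Osmr* and *Il6st*, the kinases *Jak1* and *Jak2*, the factor *Stat3* and the inhibitor *Socs3*, and all 10 were found among 23420 genes. RNA-seq was performed on whole uteri of C57BL/6J females of 8 weeks, collected on day 4.5 of a pseudopregnancy brought about by vasectomized males, to learn which transcripts depend on FOXO1 when the uterus becomes receptive. Each genotype had 3 samples, and each sample held RNA pooled from 2 females. Both genotypes carried floxed *Foxo1* alleles, in which the second large coding exon can be cut out. The *Foxo1d/d* females also carried 1 *PgrCre* allele, which makes Cre where *Pgr* is expressed, and deletion is thus not limited to the uterus. Uteri without embryos were used, so no embryonic RNA was present.

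LIF is a cytokine that the glandular epithelium (GE) of the mouse uterus secretes shortly before implantation, and females without it do not support attachment of the blastocyst. It binds a pair of receptor chains, LIFR and the shared chain IL6ST (gp130), whose attached Janus kinases phosphorylate STAT3. STAT3 then enters the nucleus and activates target genes, among them *Socs3*, whose product shuts the receptor off again. Oncostatin M (OSM) and interleukin-6 (IL6) signal through the same shared chain with partners of their own.

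The values are the authors' mean raw counts per genotype. Single-library counts were not analysed here, so no SD stands beside a mean and no difference was tested against the spread between pools. A library held a mean of 26125014 counts in the *Foxo1f/f* and 27257963 in the *Foxo1d/d* group. Ratios were taken of *Foxo1d/d* over *Foxo1f/f* after scaling each mean to its group's total count, on the log2 scale with a pseudocount of 1, while folds were taken without the pseudocount. Intervals are at 95%, come from the summed reads of the 3 libraries without a pseudocount and cover counting error only, so at low counts they are not centred on the log2 ratio given beside them. Those of a level or of a gene's ratio between genotypes are exact, and those that compare a ratio of 2 genes between genotypes are log-normal approximations. A gene was called higher or lower where its ratio, pseudocount included, was at least 1.5-fold in that direction and its mean count over both genotypes was at least 10. *Foxo1* itself (chr3:52268337-52350109, GRCm38.p6) averaged 3941 counts in *Foxo1f/f* against 1456 in *Foxo1d/d* uteri, 2.82-fold lower (95% counting interval 2.73 to 2.93). Reads on its undeleted exons, and on RNA of cells without Cre, are part of that count. In what follows, a pair of values gives *Foxo1f/f* first and *Foxo1d/d* next.

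Of the 10 genes, 9 passed the minimum mean count and *Il6* did not. In *Foxo1d/d* uteri 2 of the 9 were called higher, *Lif* and *Osm*, while 5.43% of the 15696 genes with that mean count were. *Lifr* was the 1 gene called lower, against 3.51% of all genes. The log2 ratios of the other 6 lay between -0.31 and 0.45. Over the 9 genes the median log2 ratio was -0.01, with 4 above and 5 below 0, and over all 15696 genes it was 0.02. The genes called were thus ligands and a receptor chain, in opposite directions, and the kinases, *Stat3* and *Socs3* differed by less than 1.5-fold.

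**Figure D1:**
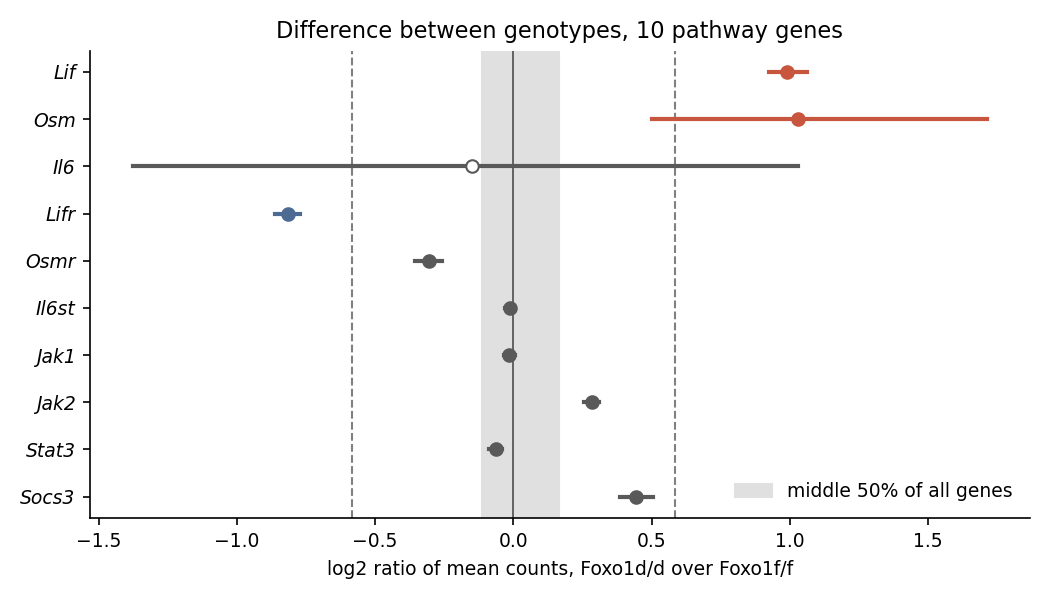
Log2 ratio of mean counts, *Foxo1d/d* over *Foxo1f/f*, for each of the 10 genes, with lines for 95% counting intervals. The dashed lines mark 1.5-fold, the grey band holds the middle 50% of all genes (-0.11 to 0.17), and the open point is *Il6*, which did not pass the minimum mean count; *Lif* and *Osm* lie beyond the right line and *Lifr* beyond the left.

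*Lif* (chr11:4257568-4272514, gene ID 16878) had the most counts of the 3 ligands in both genotypes. It averaged 854 counts in *Foxo1f/f* against 1774 in *Foxo1d/d* uteri, or 32.7 and 65.1 CPM, the count over the total of its library times 1000000. The log2 ratio came to 0.99 (interval 0.92 to 1.06), a 1.99-fold higher level, and 98.0% of the 15696 genes had a lower ratio. The counting intervals of the levels, 31.4 to 34.0 and 63.3 to 66.8 CPM, were far apart. *Osm*, the closest relative of *Lif* and mainly a product of leukocytes, was rare, averaging 11.7 and 26.0 counts, which come from 35 and 78 reads over the libraries of each genotype. Its log2 ratio of 1.03 was close to that of *Lif* but far less certain (interval 0.50 to 1.71), and the lower end is under 1.5-fold. The count ratio of *Lif* to *Osm*, which needs no scaling, was 73.2 and 68.2 (ratio of the 2 values 0.932, interval 0.624 to 1.39), so a difference between the 2 ligands was not detectable at this depth. *Il6* (chr5:30013114-30019975), an inflammatory cytokine, had few reads. There were 14 and 13 over the libraries of each genotype, on average 4.67 and 4.33, and the interval of its log2 ratio, -1.38 to 1.03, leaves a difference of 2-fold in either direction undetectable.

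The promoter of *Lif* is shown because *Lif* was called higher. A stretch before the start used for *Socs3*, a known direct target of STAT3, is shown because it held the only match. RefSeq promoter windows on GRCm38.p6 were searched on both strands over the 250 bases before each start for TTCNNNGAA and TTCNNNNGAA, the spacings at which STAT proteins bind, and for GTAAACA, a core site of forkhead factors. The STAT motifs share their outer letters but cannot match at the same start. A window was found for 9 of the 10 genes (10 windows, since *Lifr* has 2), and none for *Osm*. Of 32851 windows of that length, 7.02% hold TTCNNNGAA, 5.85% TTCNNNNGAA and 3.17% GTAAACA. The windows of *Lifr*, *Osmr* and *Socs3* lie inside the annotated spans of these genes, and those of *Jak1* and *Stat3* overlap the spans in part. Among the 10 windows there was 1 match, TTCNNNGAA before the start used for *Socs3*. The *Lif* window lies at chr11:4257318-4257567 on the plus strand, directly before the first exon, and the *Socs3* stretch, with 10 bases on each side of the match in capitals, at chr11:117969502-117969530 on the minus strand, the first base of the match 154 bases before the start used, which lies inside the annotated span of the gene.
Lif: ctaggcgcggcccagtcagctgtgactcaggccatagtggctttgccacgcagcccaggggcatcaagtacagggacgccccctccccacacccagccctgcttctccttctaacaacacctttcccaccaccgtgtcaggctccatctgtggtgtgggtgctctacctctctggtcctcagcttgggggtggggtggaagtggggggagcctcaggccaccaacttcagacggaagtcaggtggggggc
Socs3: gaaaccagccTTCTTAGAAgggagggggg
A match is a description of the letters and not of binding, and the lack of one in the *Lif* window, of which 63.6% is G or C, says only that these letters are not there.

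The receptor chains differed from each other. *Lifr* (chr15:7090610-7197489), the chain that gives the complex its specificity for LIF, averaged 3635 counts in *Foxo1f/f* against 2154 in *Foxo1d/d* uteri. It was 1.76-fold lower (interval 1.71 to 1.82), a log2 ratio of -0.82, and 2.04% of all genes had a lower ratio. *Osmr* (chr15:6813568-6874968), the chain for OSM, was lower by less, averaging 2622 and 2212 counts, for a log2 ratio of -0.31 (interval -0.35 to -0.26). *Il6st* (chr13:112464070-112506860), the signal-transducing chain that LIF, OSM and IL6 share, was level, at 22217 and 22973 counts, with a log2 ratio of -0.01 (interval -0.03 to 0.00). Because whole uteri were sequenced, less RNA per cell and fewer cells of a type cannot be told apart, for these genes and for all others.

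Ratios between the genes within a genotype show the same without any scaling to the total. There were 0.164 and 0.0938 *Lifr* counts per *Il6st* count, a 1.75-fold lower ratio (interval 1.69 to 1.80). For *Osmr* the ratio to *Il6st* was 0.118 and 0.0963, 1.23-fold lower (interval 1.18 to 1.27). The specific chains were thus both lower relative to the shared chain, *Lifr* by more than *Osmr*, and *Lifr* over *Osmr* was 1.39 and 0.974. The ligand and its receptor differed in opposite directions. *Lif* counts per *Lifr* count were 0.235 and 0.823, 3.50-fold higher (interval 3.31 to 3.71), while *Lif* counts per *Il6st* count were 2.01-fold higher (interval 1.91 to 2.11).

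*Jak1* (chr4:101151974-101265282), the kinase that gp130 signaling depends on most, averaged 12478 and 12888 counts, for a log2 ratio of -0.01 (interval -0.04 to 0.01). *Jak2* (chr19:29251803-29313095), which also serves hormone receptors such as that of prolactin, averaged 6595 and 8378 counts, for a log2 ratio of 0.28 (interval 0.26 to 0.31). The difference between the kinases exceeded counting error. *Jak2* counts per *Jak1* count were 0.529 and 0.650, 1.23-fold higher in *Foxo1d/d* uteri (interval 1.20 to 1.26).

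*Stat3* (chr11:100886806-100939594), the transcription factor that the kinases activate by phosphorylation, averaged 10474 and 10455 counts. Its log2 ratio of -0.06 (interval -0.09 to -0.04) lay past counting error but inside the middle 50% of all genes, which spans -0.11 to 0.17. RNA counts do not show how much of the STAT3 protein is phosphorylated. *Socs3* (chr11:117966079-117970336), which STAT3 induces and whose product blocks JAK activity on gp130, averaged 1364 and 1939 counts, or 52.2 and 71.1 CPM. The log2 ratio of 0.45 (interval 0.39 to 0.50) is a 1.36-fold higher level, short of the 1.5-fold asked for, and 91.9% of all genes had a lower ratio. *Socs3* counts per *Stat3* count were 0.130 and 0.185, 1.42-fold higher (interval 1.36 to 1.49).

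Levels were compared between genes as CPM per kilobase of exon. In *Foxo1f/f* uteri the order of these levels was *Jak1* (97.4), *Il6st* (77.5), *Stat3* (64.4), *Jak2* (50.2), *Socs3* (20.5), *Osmr* (18.3), *Lifr* (13.4), *Lif* (8.07), *Osm* (0.197) and *Il6* (0.0736). No neighbours in that order overlapped in their counting intervals. There, *Il6st*, the kinases and *Stat3*, which several cytokines of the family share, were more abundant per length than the receptor chains *Osmr* and *Lifr*, and those more than *Lif*, *Osm* and *Il6*. In *Foxo1d/d* uteri *Lif*, at 16.1 CPM per kilobase, stood above both *Osmr* (14.8) and *Lifr* (7.61), and *Stat3* (61.6) and *Jak2* (61.1) no longer differed beyond counting error. *Jak1* and *Il6st* traded places in both genotypes when the longest transcript was used as the length, a setting chosen after the data were seen.

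**Figure D2:**
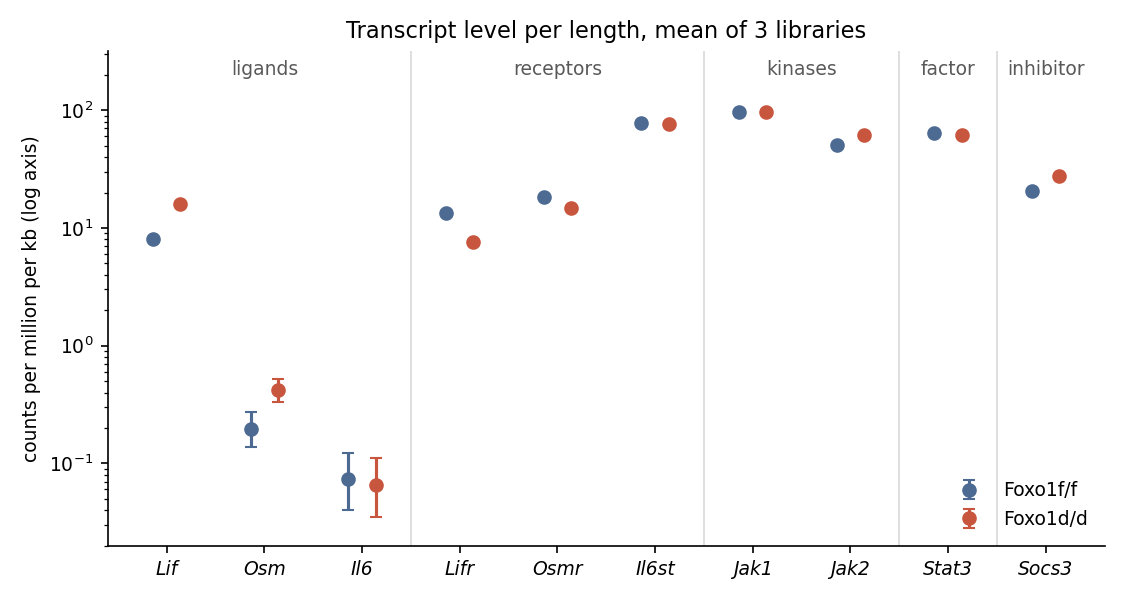
Level of each of the 10 genes in *Foxo1f/f* (blue) and *Foxo1d/d* (red) uteri, in CPM per kilobase on a log axis. Points are the authors' means over 3 libraries and bars 95% counting intervals, which are smaller than the points except for *Osm* and *Il6*; *Lif* passes *Osmr* and *Lifr* in *Foxo1d/d* uteri.

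The ligand genes and the specific receptor genes sit in pairs in the genome, a feature that the choice of genes did not use. On chromosome 11, *Osm* (chr11:4236785-4241026) lies 16.5 kb before *Lif*, with no other gene of the table between them, and both were called higher. None of the 5 genes on each side that passed the minimum mean count was called, and their log2 ratios ran from -0.11 for *Mtmr3* to 0.44 for *Hormad2*. On chromosome 15, *Osmr* lies 216 kb before *Lifr*, again with no gene of the table between, and both ratios were below 0, *Lifr* alone past 1.5-fold. Of the 10 genes around them 2 were called, both higher: *5430437J10Rik*, at 9.33 and 15.3 counts (log2 ratio 0.60), and *Gdnf*, a neurotrophic factor gene, at 134 and 304 counts (log2 ratio 1.11). The others ran from -0.17 to 0.46. These neighbours were found by position and are named after their values were seen.

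**Figure D3:**
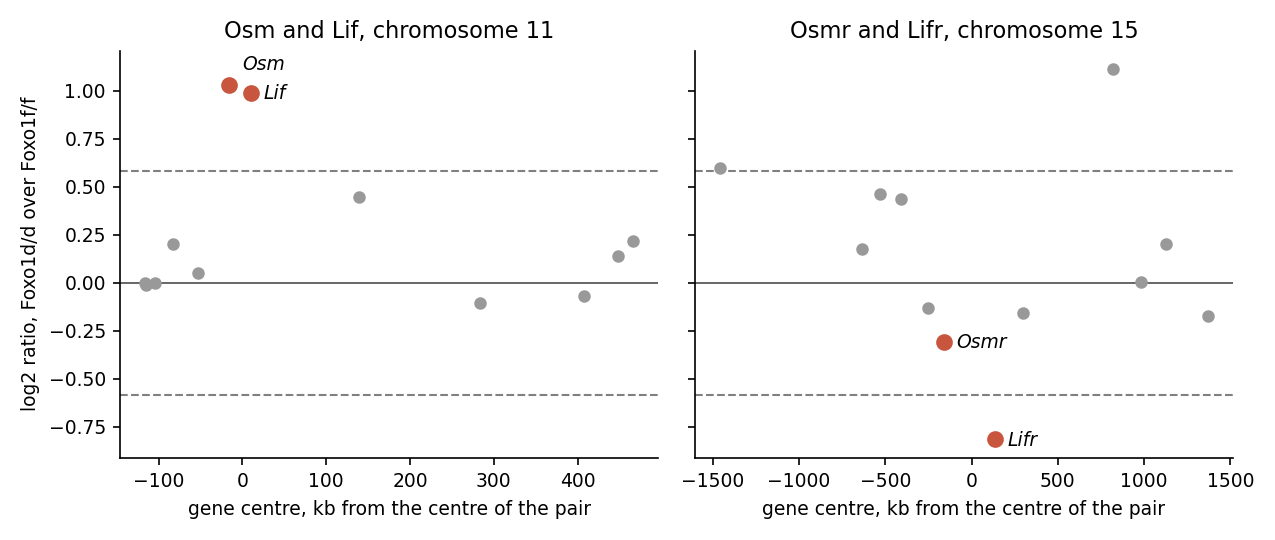
Log2 ratio of mean counts, *Foxo1d/d* over *Foxo1f/f*, by distance of each gene's centre from the centre of its pair in kb, for *Osm* and *Lif* (left) and *Osmr* and *Lifr* (right). Red points are the pair, grey points the 5 nearest genes on each side that passed the minimum mean count, and dashed lines mark 1.5-fold; *Osm* (1.03) and *Lif* (0.99) stand above all of their neighbours.

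A wider list of 78 genes of the pathway held the other cytokines and receptors of the family, the other JAK and STAT genes, inhibitors, known STAT3 targets and uterine genes tied to LIF. All 78 were found and 72 passed the minimum mean count. Of these, 12 were called higher (5.43% of all genes were) and 4 lower (3.51%). The median log2 ratio was 0.15, with 49 above and 23 below 0, where the median of all genes was 0.02.

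Of the other ligands of the family 6 of 9 passed, and the median log2 ratio was 0.50. *Clcf1*, the most abundant of them, was below 0, with 676 and 496 counts, for a log2 ratio of -0.51. None of the 5 other receptors was called, and the most abundant, *Il11ra1*, the receptor of interleukin-11, had a log2 ratio of 0.09; the mouse has near-identical copies of that gene, which can share its reads. Of the 8 other JAK and STAT genes *Stat4*, a factor of lymphocytes, was called higher (107 and 173 counts, log2 ratio 0.62), and the most abundant, *Stat6*, had a log2 ratio of -0.07. Of the 16 inhibitors *Socs1*, an inhibitor of JAK kinases that interferons induce, was called higher, averaging 210 and 383 counts, for a log2 ratio of 0.80 (interval 0.66 to 0.95). The most abundant inhibitor, the phosphatase gene *Ptpn11*, had a ratio of 0.04, and the median of the 16 was 0.04. None of the 16 was called lower.

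Known STAT3 targets were called in both directions. Of 28 genes 26 passed, with 18 ratios above 0 and 8 below and a median log2 ratio of 0.16. Among them 4 were called higher (5.43% of all genes were) and 3 lower (3.51%). *A2m*, a protease inhibitor, averaged 532 and 3316 counts and was 5.98-fold higher, and *Saa3* (log2 ratio 0.95), *Hp* (0.66) and *Lcn2* (0.62) were higher by less. The fibrinogen genes were lower. *Fga* averaged 87.3 and 2.67 counts, for a log2 ratio of -4.65 (interval -6.32 to -4.09). Its *Foxo1d/d* mean lies under a floor of 3 counts per library, so no exact fold is given. *Fgg* averaged 36.0 and 6.00 counts, 6.26-fold lower (interval of the log2 ratio -3.45 to -1.92). *Fgb*, which did not pass the minimum, averaged 9 and 0 counts, at least 3.13-fold lower against the same floor. The protein needs all 3 chains, and none of the 3 genes averaged more than 87.3 counts in *Foxo1f/f* uteri. *Serpina3n*, the target with the most counts in *Foxo1f/f* uteri, was 1.69-fold lower, at 10746 and 6627 counts. *A2m*, *Saa3* and *Serpina3n* have close paralogs, so their counts depend on how shared reads were assigned.

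Uterine genes tied to LIF numbered 12, of which 11 passed, with a median log2 ratio of 0.55. Of these 5 were called higher (5.43% of all genes were) and 1 lower (3.51%). The list sets no direction in which LIF acts on each gene, and the part of LIF in these values was not tested. The paper names *Msx1*, *Msx2* and *Ihh* as targets of the progesterone receptor. *Ptgs2*, which makes prostaglandins, was called higher at 18.0 and 57.0 counts (log2 ratio 1.55, interval 1.15 to 2.07). The paper found PTGS2 protein reduced in the stroma of pregnant *Foxo1d/d* uteri, an unlike measure and setting. Also higher were the homeobox genes *Msx2* (1.30) and *Msx1* (1.11), the EGF family ligand *Areg* (0.71) and the hedgehog ligand *Ihh* (0.60). The call of *Ihh* is lost with scaling by the median ratio or by the upper quartile (0.58 in both). *Ihh* and *Areg* are known products of the luminal epithelium (LE) around implantation. *Igfbp3*, a binding protein of insulin-like growth factors and the most abundant gene of the list, was lower by far, averaging 23774 and 5250 counts, for a log2 ratio of -2.24 (interval -2.27 to -2.22).

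**Figure D4:**
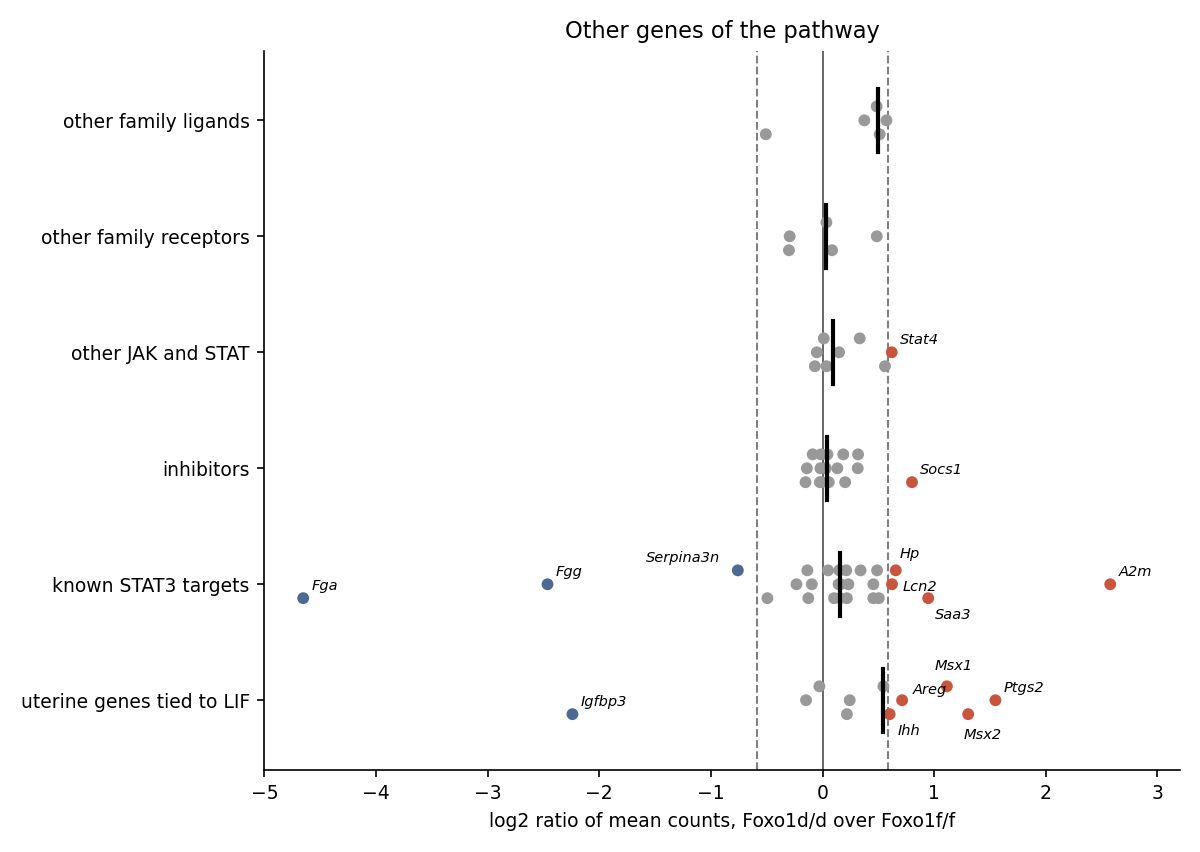
Log2 ratio of mean counts, *Foxo1d/d* over *Foxo1f/f*, with a pseudocount of 1, for the other pathway genes that passed the minimum mean count, a row per list. Points are genes (1 gene is not shown), coloured and named where called (red higher, blue lower), short black bars are medians over all genes of a list that passed, and dashed lines mark 1.5-fold; the known STAT3 targets reach from *Fga* (-4.65) to *A2m* (2.58).

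Markers of the cell types of the uterus are given beside these values, because the pathway genes are made by different cells. Of 12 epithelial markers 9 had ratios above 0, the direction of *Lif*, and 3 below, with a median log2 ratio of 0.32. Among them 4 were called higher (5.43% of all genes were) and 2 lower (3.51%), from *Wnt7b* (log2 ratio -4.55) to *Lpar3* (1.56). The summed level of the 12 was 859 and 1004 CPM. The most abundant, *Cdh1*, had a log2 ratio of 0.11. The part of the epithelium in the values of *Lif* was not tested. Of 8 gland markers 7 were found, with 3 ratios above 0 and 4 below and a median log2 ratio of -0.30. Of these 1 was called higher (5.43% of all genes were) and 3 lower (3.51%), and the summed level of the 7 was 903 and 97.4 CPM. Most of that sum in *Foxo1f/f* uteri was *Prss29* (526 CPM), *Prss28* (193 CPM) and *Spink3* (119 CPM), the 3 called lower. These genes encode secreted products. *Prss29* had the most counts of the list in *Foxo1f/f* uteri (13746 and 652 counts, log2 ratio -4.46), and its paralog *Prss28* had the lowest ratio (-6.56). *Aldh1a1* had the highest ratio (0.60) and loses its call under the same 2 scalings as *Ihh*. *Wfdc3* had a log2 ratio of 0.38 and *Sox9* of -0.30. *Foxa2*, the transcription factor that defines GE, named here after its values were seen, averaged 280 and 300 counts (log2 ratio 0.04, interval -0.10 to 0.18). *Lif* counts per *Foxa2* count were 3.05 and 5.92, 1.94-fold higher in *Foxo1d/d* uteri (interval 1.74 to 2.15). The gland markers ran from -6.56 to 0.60, so this ratio depends on the marker taken. The part of the glands in the values of *Lif* was not tested.

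None of the 10 stromal, 7 myometrial and 7 endothelial markers was called. The stromal markers, *Hoxa10* and *Hoxa11* of the uterus among them, were abundant and had a median log2 ratio of -0.05 (*Pdgfra* -0.26 to *Lum* 0.37) and a summed level of 14929 and 14877 CPM, led by *Col3a1*. The myometrial markers were all below 0, from *Myh11*, the most abundant, at -0.43 to *Myocd* at -0.12, with a summed level of 6588 and 5312 CPM. So were the endothelial markers, from *Vwf* at -0.41 to *Tek* at -0.19, with a summed level of 1641 and 1382 CPM, led by *Pecam1*. The log2 ratio of *Lifr*, -0.82, was below that of every marker of these 3 lists. It was lower relative to *Myh11* (1.31-fold, interval 1.27 to 1.35), to *Pdgfra* (1.47-fold, interval 1.42 to 1.52), to *Pecam1* (1.51-fold, interval 1.46 to 1.56) and to *Cdh1* (1.89-fold, interval 1.82 to 1.97).

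Of 15 leukocyte markers 14 were found and 13 passed the minimum. All 13 were above 0, from *Cd68* at 0.13 to *Cd8a* at 1.94, and the median log2 ratio was 0.45. Of the 13, 5 were called higher, where 5.43% of all genes were. Their summed level was 338 and 423 CPM, and *Ptprc* (CD45), the most abundant, had 2556 and 3515 counts, a log2 ratio of 0.40. *Socs3*, which leukocytes express too, had 0.534 and 0.552 counts per *Ptprc* count (1.03-fold, interval 0.983 to 1.09). *Osm* was higher relative to *Ptprc* (1.62-fold, interval 1.09 to 2.42). Both comparisons with *Ptprc* were added after the values were seen. The log2 ratios of the 13 markers run from 0.13 to 1.94, so the outcome depends on the marker taken. The part of leukocytes in the values of *Socs3*, *Socs1*, *Stat4* and *Osm* was not tested. No marker of any list was at 0 in both genotypes.

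**Figure D5:**
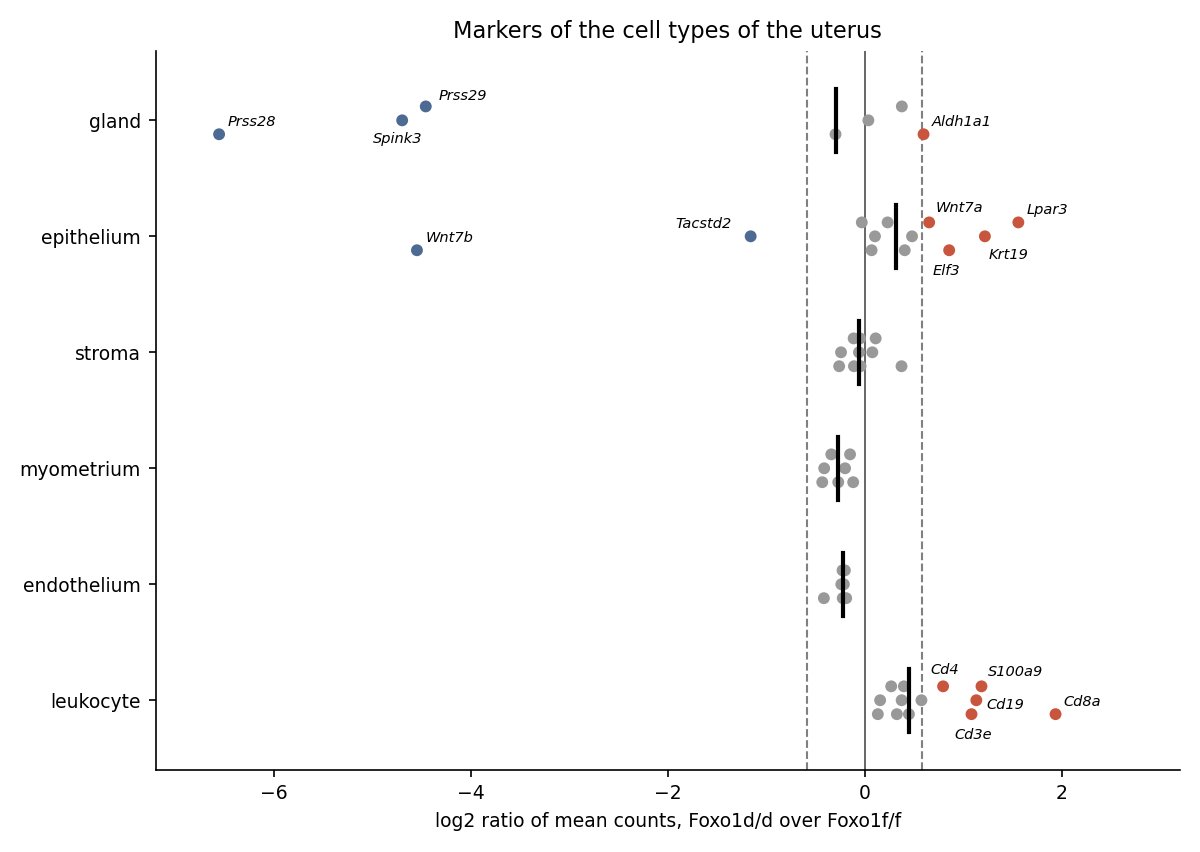
Log2 ratio of mean counts, *Foxo1d/d* over *Foxo1f/f*, of the markers of 6 cell types that passed the minimum mean count, a row per cell type. Points are genes, coloured and named where called (red higher, blue lower), black bars are medians and dashed lines mark 1.5-fold; leukocyte markers all lie above 0, and myometrial and endothelial markers all lie below.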

How the data were processed

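RNA-seq of 6 uterine samples was used, 3 per genotype, as grouped by genotype in the labels. The authors trimmed the paired reads, mapped them with STAR, removed duplicates with Picard and counted reads per RefSeq gene with HTSeq; versions are not given in the sources used here. The paper names the build mm10, which is GRCm38, while the submitters' processing notes name mm9. The authors deposited 1 table that gives, per gene and genotype, a mean of raw counts over 3 libraries, treated here as an estimated count because means need not be whole. Its other columns hold the authors' average log2 CPM and their edgeR fold change, p-value and FDR, and were not used. The number of columns of single samples left out is 0. With 1 value per genotype no test was run.

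Each mean plus 1 was scaled to its genotype's total (78375043 and 81773890 counts summed over libraries) before log2 ratios were taken. Intervals are Clopper-Pearson for ratios, Poisson for levels and log-normal for ratios of ratios, all 95%, and reads are not independent molecules. Exon lengths come from GENCODE M21 protein-coding transcripts, which may differ from the authors' RefSeq models, and positions and promoters from RefSeq on GRCm38.p6. The steps were tested on simulated data. Python 3.11.15, numpy 2.4.6, pandas 2.3.3, scipy 1.17.1 and matplotlib 3.10.9 were used.

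The members and lists were chosen with earlier results of these data known. Genes named are the 10 members, *Foxo1*, other pathway genes called at 1.5-fold, the most abundant gene of each list (1 gene that the rule names is not reported here) and, of marker lists, the 2 ends of the range. Ratios to marker genes were added after the values were seen. Of the markers, *Cxcl15* and *Ly6g* were not matched, *Spink1* was matched as *Spink3* and *Adgre1* as *Emr1*. Of the other pathway genes, *Il27*, *Cntf*, *Il31*, *Fgb*, *Reg3g* and *Ereg* did not pass the minimum mean count. Alternatives were pseudocounts of 0.5 and 5, scaling by the median ratio, the upper quartile or the total without the 10 most abundant genes, minimum mean counts of 1, 50 or none, a lower and a higher fold and, chosen after seeing the data, the length of the longest transcript.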

Additional observations from a re-analysis of the deposited data

How the results depend on the processing

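No paired analysis was possible because only mean counts per genotype were used, which carry no replicate, and for the same reason no library could be left out in turn. The log2 ratio of *Lif* lay between 0.97 and 0.99 under 3 other scalings and 2 other pseudocounts, that of *Lifr* between -0.84 and -0.81 and that of *Osm* between 0.83 and 1.06, and none of the 10 genes changed sign. *Lif*, *Osm* and *Lifr* kept their calls under those settings and with a minimum mean count of 1 or none. With a minimum mean count of 50, 1 of the 10 genes was called higher, since *Osm* did not pass, and 2 of the other pathway genes were called lower. With a fold of 2, 1 gene was called higher (*Osm*, with *Lif* just below), 0 lower, and 5 other pathway genes higher. With the fold lowered to a ratio of 5 to 4, *Socs3* joined the higher genes, and 25 other pathway genes were called higher. The median log2 ratio of the genes was -0.035 with scaling by the median ratio and -0.034 with scaling by the upper quartile, which move every ratio by about -0.02 and take *Ihh* and *Aldh1a1* below the fold. Among the ratios of the 9 genes other than *Lif* under those scalings and pseudocounts and the ranks of all 10 by level, 49 values stayed within counting error or at their rank, 6 moved (*Il6st* and *Jak1*, by ratio and by rank) and 0 reversed. Depth limits *Osm* and *Il6* alone among the 10 genes, and with means per genotype a difference cannot be set against the variation between pools.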

Other observations

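*Stat3* lies 1636 bases from *Stat5a*, and *Stat5b* lies on the far side of *Stat5a*. Their products are activated by different receptors, LIF mainly through STAT3 and prolactin and growth hormone through the STAT5 proteins. Next to the level *Stat3* and *Stat5b* (log2 ratio 0.01), *Stat5a* was 1.47-fold higher, with a log2 ratio of 0.56 (interval 0.49 to 0.63), just short of 1.5-fold. *Stat5a* and *Stat5b* are named for their position, after their values were seen. None of the 5 genes on each side was called.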
